A study of Mus musculus with 10 samples.

Results

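The genes described here are the collagen and laminin chains and 12 core matrix genes, and they were measured in single cells of the mouse kidney cortex. They were taken by their names: every row called Col, digits, a and digits (44 genes), every row called Lam, then a, b or c and a digit (11 genes), and Fn1, Fbn1, Eln, Sparc, Tnc, Postn, Lum, Bgn, Nid1, Nid2, Hspg2 and Dcn. That gave 67 of the 28808 genes in the tables. The mice were 4 weeks old. Normal kidneys gave 1 control library, and injured kidneys gave 1 library each for days 1, 2 and 4 and 2 libraries each for days 7, 11 and 14. Beyond the day, the labels say nothing of the injury, and strain, genotype, sex, animal and batch are absent from them. Where a day has 2 libraries, they do not say whether these came from different animals, so the p-values below measure the spread between libraries, which may be technical.

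The extracellular matrix of the kidney has a pair of main forms. Basement membranes are thin sheets under the tubules, around the capillaries and between podocytes and endothelium, built of type IV collagen, laminin trimers of an alpha, a beta and a gamma chain, the nidogens that link both networks, and the heparan sulfate proteoglycan perlecan (Hspg2). The interstitial matrix between tubules holds fibrils of collagens I and III with collagen V, beaded collagen VI filaments, fibronectin, and the small proteoglycans decorin, biglycan and lumican. Fibroblasts and pericytes are its usual source, and its excess is called fibrosis. Type IV collagen has alpha chains in several networks: the chains of Col4a1 and Col4a2 occur in nearly all basement membranes, those of Col4a3, Col4a4 and Col4a5 in the mature glomerular membrane, and those of Col4a5 and Col4a6 in some tubular membranes.

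The libraries were made by Drop-seq, which captures the RNA of each cell on a barcoded bead and reads the 3′ end of its transcripts. After filters on depth and mitochondrial RNA, 52797 cells were kept, between 3568 and 6941 per library, with medians of 1244 to 2661.5 unique molecular identifiers (UMIs, the counted molecules) per cell. The 67 genes held 180075 of 162767052 UMIs. All had at least 1 UMI, 59 had one in every library and 11 had fewer than 50. Cells were assigned to a class by marker UMIs that include none of the 67 genes. The 10 libraries held 26 to 128 stromal, 126 to 339 endothelial, 12 to 223 podocyte, 1752 to 6418 tubular and 65 to 1950 immune cells each. Levels are given below as CPM, the UMIs of a gene per 1000000 UMIs of that class in that library, and 3′ counts were not scaled to transcript length. Changes are log2 ratios from edgeR on raw UMIs summed per library and class, with standard errors and p-values adjusted over all genes tested. A gene is said to rise or fall where the adjusted p was under 0.05. edgeR scales libraries by the trimmed mean of M-values (TMM), which sets the change of a typical gene near 0, whereas CPM do not. At day 7 total UMIs gave changes 0.797 higher on the log2 scale than TMM in tubular cells, 0.786 over all cells, 0.265 in stromal and 0.197 in endothelial cells, as a median over genes, so a rise in level there exceeds the change reported. The gate itself makes the markers of a class high in it and low elsewhere, so their sums are no independent check of the labels. Summed stromal markers came to 11379 to 37929.8 CPM in stromal cells and at most 917 in the other 4 classes. Podocyte markers came to 21553 to 39992 CPM in podocytes and at most 449 elsewhere, and endothelial markers to 11055 to 15805 CPM in endothelial cells and at most 2293 elsewhere. The control, the only library of its group, enters every comparison with it, so no spread among controls was measured.

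Over all cells, the 67 genes together held 821 CPM in the control, 1776 at day 1, 1623 at day 2, 1178 at day 4, 1879 and 1727 at day 7, 1004 and 843 at day 11, and 660.4 and 608 at day 14. Both day 7 libraries lay above every other library except that of day 1, and both day 14 libraries lay below the control. At day 7, 32 of 57 genes tested differed from the control, 23 higher and 9 lower, where 41.1% of all genes tested differed, 18.1% higher and 22.9% lower. Scaled to total UMIs, 35 were higher and 4 lower, where 47.2% of all genes were higher and 8.88% lower, and the share of higher genes among all genes called went from 44.2% to 84.2%. With TMM their median change was 0.95, against -0.06 over all genes tested. The rises were led by Fn1 4.79, Lamb3 4.33, Col3a1 3.83, Col1a1 3.57, Tnc 2.71, Col6a1 2.55, Col5a3 2.42, Col6a2 2.42 and Col14a1 2.19, next to Col17a1 with 2 UMIs in the control and 157 at day 7. The falls were Col19a1 -5.05, Col6a6 -4.48, Col4a3 -2.42, Eln -2.38, Col4a4 -2.18, Lama3 -1.94, Col26a1 -1.30, Col27a1 -1.28 and Postn -1.09, of which Eln (elastin), Lama3, Col26a1, Col27a1 and Postn did not pass with total UMIs. At day 11, 23 differed from day 7, 6 higher and 17 lower (of all genes 47%, with 23.2% higher and 23.8% lower). With total UMIs these were 4 higher and 35 lower, where 11.3% of all genes were higher and 50.3% lower. At day 14, 9 differed from the control, all lower (of all genes 10.2%, with 3.39% higher and 6.8% lower), and this count was 4 with DESeq2. The other 10, all collagen genes, were too low to test: Col2a1, Col6a5, Col8a2, Col9a1, Col9a2, Col10a1, Col13a1, Col22a1, Col25a1 and Col28a1. A gene passed the filter on low counts if any library was high enough, as Col17a1 was at day 7. The counts over these sums thus describe the genes tested. In such sums, a change in the number of cells of a type and a change in RNA per cell cannot be told apart, so the classes are described separately.

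The genes were spread over the classes in different ways. Of the 51 with at least 100 UMIs, 31 had their highest mean level in stromal cells, 8 in tubular cells, 6 in podocytes, 5 in endothelial cells and 1, Col20a1, in immune cells. That of Col17a1 in podocytes rested on 1 UMI. Those of Col11a1 and Col24a1 in stromal cells rested on 2 UMIs each and that of Col4a6 on 5. The level of Lama5 was higher in stromal cells than in podocytes in 5 of 10 libraries. In stromal cells the leading genes were Col1a2 at 4339 ± 4154 CPM (SD over 10 libraries), the matrix-binding glycoprotein Sparc at 3569.8 ± 1692, Col3a1 at 1684 ± 1846, Col4a2 at 894 ± 223 and Col4a1 at 857 ± 336. The SDs of Col1a2 and Col3a1 were as large as their means; the injury days are pooled here. In endothelial cells Sparc led at 3048 ± 662, followed by Col4a1 at 495 ± 170.3 and Col4a2 at 427 ± 107. In tubular cells Col4a1 (119 ± 85.7), Col18a1 (112 ± 83.7), a basement membrane collagen, and Sparc (106 ± 105) came first, and their order was within their spread. In podocytes Sparc reached 4206 ± 901 and Col4a3 1427 ± 479. In immune cells Fn1, fibronectin, came first at 118 ± 141.

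**Figure D1:**
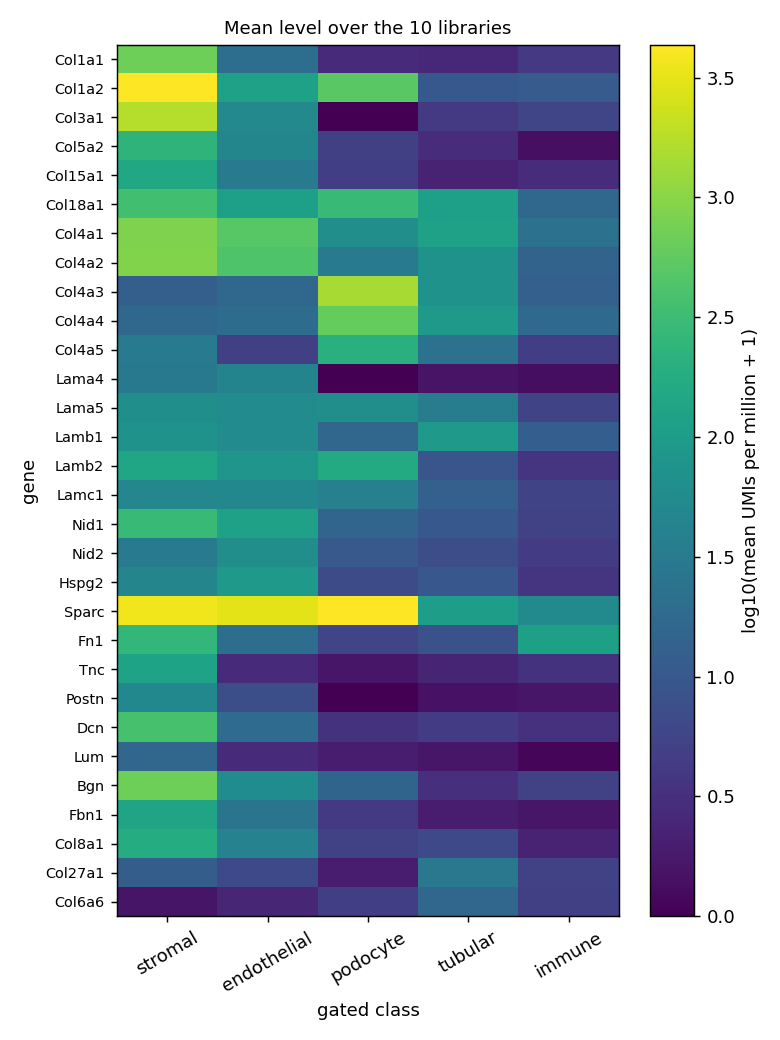
Heat map of the mean level of matrix genes (rows) in 5 classes (columns), as log10 of CPM plus 1, over 10 libraries. Col1a1, Col1a2, Col3a1 and Col5a2 are highest in the stromal column, Col4a3 to Col4a5 in the podocyte column (Col4a3 mean 1427 CPM against 71.8 in tubular cells), and Lama4 in the endothelial column.

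Each class was compared with tubular cells of the same libraries. In these comparisons, that of podocytes below included, a gene could pass the filter on low counts through either class alone. Fbn1, for example, was at most at 2.47 CPM in tubular and at least at 30.7 in stromal cells. The counts describe the genes tested and not the whole set. Stromal cells differed in 23 of 26 genes tested, 18 higher and 5 lower, where 43.4% of all genes tested differed, 14.7% higher and 28.8% lower. Among the genes tested, the largest stromal excess was that of the fibril genes Col3a1 (8.32 ± 0.41 on the log2 scale, SE) and Col1a2 (8.19 ± 0.34) and of biglycan, Bgn (8.07 ± 0.33). Col1a1, for which no result of this comparison is given, had means of 675 CPM in stromal and 1.56 in tubular cells. The list went on with fibrillin, Fbn1 6.94, and Col5a2 6.83, Dcn 6.17, Nid1 5.46, Sparc 5.39 and Col8a1 4.94. The basement membrane pair Col4a1 and Col4a2 was also higher, by 2.75 ± 0.20 and 3.41 ± 0.19. The genes lower in stromal cells included Col4a4 -2.69, Col4a3 -2.58, Col27a1 -1.21 and Lamb1 -0.72. Endothelial cells differed in 25 of 27 genes, 19 higher and 6 lower (of all genes 64.6%, with 30.3% higher and 34.3% lower). Lama4, the laminin alpha chain of vessel walls, led with 6.18 ± 0.39, followed by Sparc 5.43, Col15a1 4.81, Fbn1 4.78, Col5a2 4.66, Bgn 4.61, Nid1 4.45, Hspg2 3.45, Nid2 3.23 and Lamb2 3.20. The endothelial falls were Col27a1 -2.77, Col4a5 -2.69, Col4a4 -2.54, Col4a3 -2.43, Col26a1 -1.88 and Lamb1 -0.78. Immune cells differed in 19 of 22 genes (of all genes 58.5%, with 24.6% higher and 33.9% lower), and 17 of these were lower. Their 2 higher genes were Col14a1 (4.80 ± 0.47), whose product binds the surface of fibrils, and Fn1 (4.24 ± 0.41).

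Podocytes, the cells that cover the glomerular capillaries, carried the chains of the mature glomerular membrane. Col4a3 was at 1433 CPM in control podocytes, 1156 at day 1, 1652 at day 2, 1921 at day 4, 2258 and 1381 at day 7, 880.2 and 796 at day 11 and 1786 and 1001 at day 14. Every podocyte value lay above every tubular value, which ran from 36.5 to 123. In the 7 libraries with at least 20 podocytes, 16 of 19 genes differed from tubular cells (of all genes 43.3%, with 14.8% higher and 28.5% lower), 9 higher and 7 lower. Col4a3 was higher by 3.67 ± 0.23 (SE, adjusted p = 1.7e-10), Col4a5 by 2.95 ± 0.20 and Col4a4 by 2.19 ± 0.17. Lamb2, whose laminin beta chain belongs to the same membrane, was higher by 4.22 ± 0.29, and Lamc1 1.34 ± 0.39, Col18a1 1.21 ± 0.26 and Lama5 0.70 ± 0.28 followed. The widespread pair went the other way, with Col4a1 at -1.63 ± 0.39 and Col4a2 at -2.10 ± 0.46, as did Col6a6 -4.20, Col27a1 -3.99, Hspg2 -2.89 and Lamb1 -2.43. Sparc (6.05 ± 0.42) was the gene with the largest podocyte excess.

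Podocytes also held transcripts of 1 of the 2 chains of collagen I. Col1a2 was at 296 to 683 CPM in podocytes of the 10 libraries. In the libraries with at least 20 podocytes it was higher than in tubular cells by 5.87 ± 0.41. Col1a1, the partner chain of the same trimer, had 2 UMIs in all podocytes of all libraries, and Col3a1 had 0. In stromal cells of the control the same genes stood at 769, 90.2 and 169 CPM. Podocytes held 21.6% of the Col1a2 UMIs of the control library and 42.7% and 24.2% of those of day 14. Stromal cells held 42.3% in the control, 71.9% and 71.4% at day 7, and 18.0% and 14.5% at day 14.

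The genes of type IV collagen lie in pairs, head to head on opposite strands. In the GRCm38.p6 annotation, the starts of Col4a1 and Col4a2 on chromosome 8 are 21 bases apart, those of Col4a3 and Col4a4 on chromosome 1 are 72 apart, and those of Col4a5 and Col4a6 on chromosome X are 1309 apart. The stretch between Col4a4 and Col4a3 is printed because both genes fell together in tubular cells, as described further on. It is followed by the 100 bases upstream of Col4a6, which rose there, and of Col3a1 and Tnc, which were among the largest stromal rises at day 7. All come from the RefSeq promoter table of that build. Capitals mark GGGCGG, the GC box, which is on the other strand in Col4a6.
Col4a4 to Col4a3, chr1:82586850-82586920, minus strand: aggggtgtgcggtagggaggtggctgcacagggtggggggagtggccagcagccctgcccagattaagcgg
Col4a6, chrX:141474077-141474176, minus strand: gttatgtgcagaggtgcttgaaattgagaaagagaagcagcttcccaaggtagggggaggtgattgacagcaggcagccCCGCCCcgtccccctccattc
Col3a1, chr1:45311438-45311537, plus strand: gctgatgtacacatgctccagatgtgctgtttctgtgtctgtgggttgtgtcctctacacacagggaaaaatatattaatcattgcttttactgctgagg
Tnc, chr4:64047016-64047115, minus strand: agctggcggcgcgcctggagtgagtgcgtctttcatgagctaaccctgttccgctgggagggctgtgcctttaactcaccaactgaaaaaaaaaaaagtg
The shared stretch of Col4a3 and Col4a4 has 71 bases and a GC content of 69.0%. The motifs searched on both strands were the CCAAT box, the TATAAA box, the GC box with the letters GGGCGG and the AP-1 site with the letters TGANTCA, where N is any base, and none of them was found there. Upstream of Tnc, a TATAAA box and a GC box occurred among 250 bases searched, but not in the 100 printed, and upstream of Col3a1 a TATAAA box did. In the 250 bases before the start, the GC box was found for 28 of the 47 genes in the table and for 32.94% of all 27025 promoters. The CCAAT box was found for 14 of the 47 and 34.46% of all, the TATAAA box for 6 and 12.97%, and the AP-1 site for 1 and 6.868%. A match is a match of letters, not a measured binding site.

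In stromal cells Col1a1, Col1a2 and Col3a1 stood far higher at days 2, 4 and 7 than in the control, and below it at day 14. Col1a1 (chr11:94936224-94953042, plus strand), which codes for the main chain of collagen I, was at 90.2 in the control, 285 at day 1, 1238 at day 2, 1555 at day 4, 1078 and 1720.5 at day 7, 738 and 25.6 at day 11, and 19.8 and 0 at day 14. These values rest on 23 UMIs in the control, 60 and 346 at day 7, and 1 or none in the second day 11 library and in both of day 14. Col1a2, its partner, was at 769 in the control, 3203 at day 1, 5049 at day 2, 10842 at day 4, 10796 and 7494 at day 7, 4059 and 589 at day 11, and 317 and 276 at day 14. Both day 7 libraries lay above the control for both chains, and both day 14 libraries below it. Col3a1 (chr1:45311538-45349706, plus strand), collagen III, was at 169 in the control, 532 at day 1, 1403 at day 2, 4073 at day 4, 4168 and 4416 at day 7, 1806 and 76.8 at day 11, and 139 and 61.3 at day 14. Its day 1 level had an exact 95% counting interval of 404 to 688, above the interval of the control, 122 to 227. Such an interval covers counting error only, not the spread between cells or libraries. At day 1, 10 of 70 stromal cells held 399 of the 438 UMIs of Col1a1, Col1a2 and Col3a1. The 2 day 11 libraries stood far apart in Col1a1 and Col3a1, with 75 and 28 stromal cells. Positions are from GENCODE M21 on GRCm38.

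Fibronectin and Sparc followed a like course, and the basement membrane chain Col4a1 a flatter one. Fn1 (chr1:71585520-71653200, minus strand) in stromal cells was at 31.4 in the control, 9.18 at day 1, 178 at day 2, 922 at day 4, 611 and 537 at day 7, 243 and 25.6 at day 11, and 0 and 30.7 at day 14. Sparc (chr11:55394500-55423183, minus strand) was at 1827 in the control, 2891 at day 1, 3756 at day 2, 5793 at day 4, 6323 and 5022 at day 7, 3826 and 2867 at day 11, and 1644 and 1748 at day 14. For both genes the 2 day 7 libraries lay above the control and above both libraries of days 11 and 14. Col4a1 was at 800.0 in the control, 826 at day 1, 895 at day 2, 1734 at day 4, 844 and 915 at day 7, 777 and 717 at day 11, and 574 and 491 at day 14, and its day 7 libraries lay close to the control. Decorin (Dcn) was at 180.4 in the control, 18.4 at day 1, 269.6 at day 2, 894 at day 4, 305 and 1402 at day 7, 660.3 and 25.6 at day 11, and 0 and 0 at day 14, with day 7 libraries that stood apart.

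**Figure D2:**
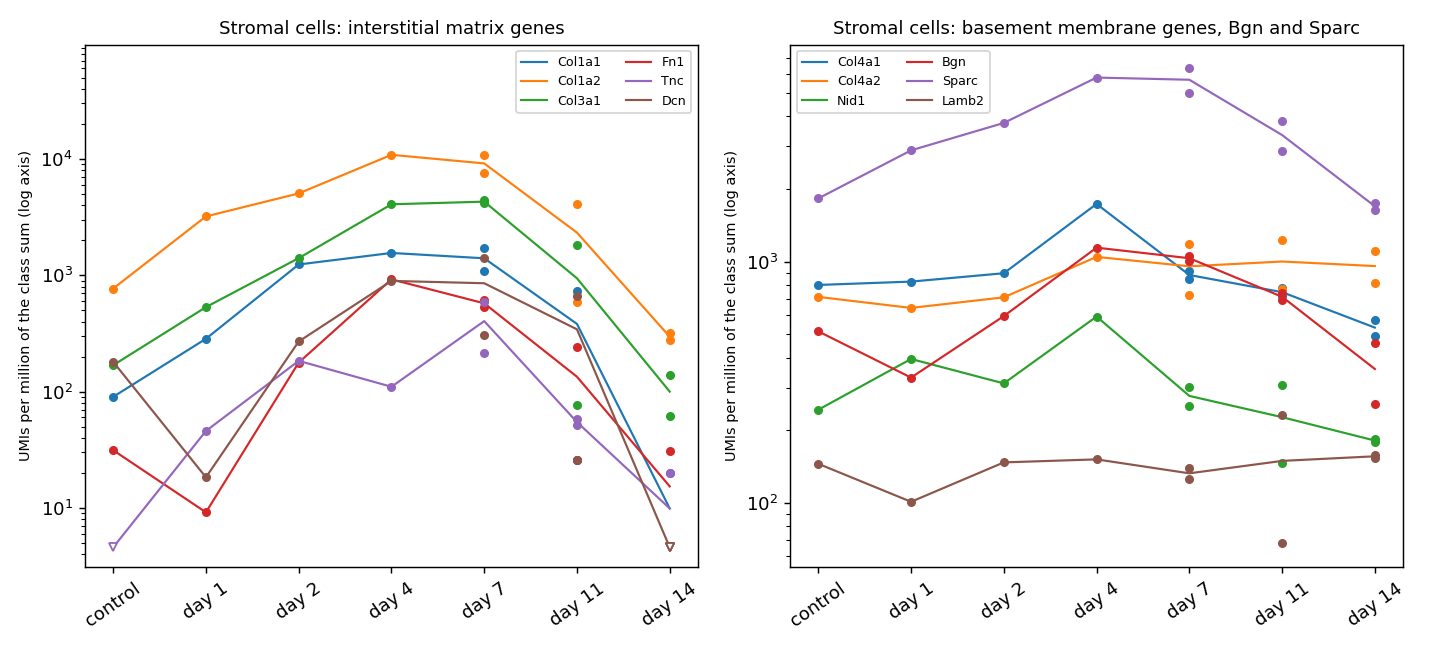
Levels of matrix genes in stromal cells, in CPM on a log axis, by day; points are single libraries, lines join group means, and open triangles mark libraries with 0 UMIs, drawn below the lowest nonzero value. Col1a1 stood at 90.2 in the control and 1078 and 1720.5 at day 7, while Col4a1 stood at 800.0 and 844 and 915.

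At day 7, 13 of the 20 genes that passed the filter on low counts in stromal cells were higher than in the control and none lower, where 8.19% of all genes tested differed, 4.84% higher and 3.35% lower. Genes such as Tnc and Col15a1, with 0 UMIs in the control, passed that filter only through libraries in which they were high, so the count describes these 20 genes and not the 67. Collagen III rose by 4.49 ± 0.55 (SE, adjusted p = 4.4e-11), Col1a1 by 3.79 ± 0.53 (SE, adjusted p = 8.4e-09) and Col1a2 by 3.39 ± 0.49 (SE, adjusted p = 2e-08). Fn1 rose by 3.96 ± 0.60, Col14a1 by 3.47 ± 0.90, the collagen VI chain Col6a1 by 2.78 ± 0.92 and fibrillin Fbn1 by 2.41 ± 0.66. Decorin (Dcn, 2.16 ± 0.50), Col5a2 (1.97 ± 0.47), Col18a1 (1.65 ± 0.45) and Sparc (1.45 ± 0.39) rose less. Tenascin C (Tnc), a glycoprotein of healing tissue, had 0 UMIs in control stromal cells and 216 and 592 CPM at day 7, at least 43.4-fold higher over both libraries, taking 3 counts as the limit that 0 allows, or at least 18.3-fold and 50.3-fold with each alone. Col15a1 also had 0 in the control and 341 and 308 at day 7, at least 26.8-fold higher over both, or 29.0-fold and 26.2-fold with each alone. Among basement membrane genes of the same cells, Col18a1 rose, as given above. Smaller values that did not pass the threshold were those of Col4a1 (-0.03 ± 0.37), Col4a2 (0.21 ± 0.38), Nid1 (0.05 ± 0.44) and Lamb2 (-0.27 ± 0.55). Biglycan (0.84 ± 0.38), Col6a3 (1.61 ± 0.70) and Col8a1 (0.96 ± 0.61) did not pass it either.

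These stromal calls depend on how the spread is estimated. edgeR's spread for stromal cells was almost wholly shared between genes, with 136 prior against 3 residual degrees of freedom. DESeq2 called 3 of the 20 genes at day 7, Fn1, Sparc and Tnc, and gave Col1a1 a change of 3.80 ± 2.05 (SE, adjusted p = 0.815), Col3a1 4.51 ± 1.79 (adjusted p = 0.316) and Col1a2 3.41 ± 1.27 (adjusted p = 0.238). Without the second day 7 library edgeR called 7, and without the filter on low counts 1 of 57. The UMIs were also uneven between cells. Of the Col1a1, Col1a2 and Col3a1 UMIs of stromal cells, the 10 highest cells held 153 of 262 in the control, 779 of 893 and 1530 of 2741 at day 7, 611 of 680 and 25 of 27 at day 11, and 20 of 24 and 11 of 11 at day 14. At days 1, 2 and 4 the 10 highest cells held 399 of 438, 1100 of 1255 and 1027 of 1197. Such shares depend on how many cells held any of these UMIs. Those were 68 in the control, 29 and 73 at day 7, 49 and 12 at day 11, and 14 and 6 at day 14. Cells with at least 5 such UMIs numbered 9 of 115 in the control, 15 of 49 and 44 of 128 at day 7, 10 of 75 and 2 of 28 at day 11, and 0 of 43 and 0 of 26 at day 14. Depth per cell was not matched between libraries.

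Other values differed beside the stromal rise. Of 20 markers of kinds of stromal cells, both day 7 libraries lay below the control for 9 (Rgs5, Acta2, Myh11, Tagln, Notch3, Cspg4, Gucy1a3, Pdgfrb and Cd248), above it for 6 (Pdgfra, Pi16, Prrx1, Cygb, Gas1 and Ren1) and on neither side for 5. At day 14 both lay below it for 5, above it for 6, Acta2, Pdgfrb and Cd248 included, and on neither side for 9. The pericyte gene Rgs5 was at 4608 CPM in the control, 3089.9 and 3148 at day 7, and 2912 and 3373 at day 14. The fibroblast genes Pdgfra, Pi16, Clec3b and Cd248 summed to 224 in the control, 216 and 303 at day 7, and 495 and 399 at day 14, and 37.4% of stromal cells held a UMI of them in the control against 20.4% and 33.6% at day 7. These shares of cells are at unlike depth, with medians of 1822 UMIs per stromal cell in the control and 964 and 1273 at day 7. Ren1, renin, was at 2149 in the control, 2641 and 4619 at day 7, and 22382 and 18182 at day 14. These were gate markers. Red blood cell markers in stromal cells summed to 15.7 CPM in the control and to 1976 and 44.8 at day 7. The macrophage gene Lyz2 was at 0 in the control and at 1024 and 343 at day 7. The median mitochondrial share of stromal cells was 13.4% in the control and 3.69% and 4.44% at day 7. The part of these in the stromal rise was not tested.

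Tubular cells, the epithelium of the nephron, were higher at day 7 in fibronectin, Sparc, Nid1, Lamb3, Col17a1 and the widespread collagen IV pair. At day 7, 32 of 50 genes tested differed from the control, 25 higher and 7 lower, where 38.2% of all genes tested differed, 17.9% higher and 20.2% lower. The median change was 1.45, against 0.00 over all genes tested. Genes such as Lamb3 and Col17a1, low in the control, passed the filter on low counts only through the day 7 libraries. The count thus describes these 50 genes tested and not the whole set. Scaled to total UMIs, 32 were higher and 4 lower, where 51.9% of all genes were higher and 7.51% lower, and the share of higher genes among all genes called went from 47% to 87.4%. The make-up of this class differed between days. Cells in which markers of the proximal tubule held at least 50% of the tubular marker UMIs were 3722 of 5411 (68.8%) in the control, 253 of 1752 (14.4%) and 375 of 2360 (15.9%) at day 7, 77.3% and 81.2% at day 11, and 80.0% and 78.8% at day 14. In these proximal cells alone there were 18 calls among 42 genes tested, 16 of them shared. The share of all genes called was not determined in proximal cells. Of 23 named genes refitted in them, 13 kept the call, among them Col17a1, Fn1, Sparc, Col4a1, Col4a2, Hspg2, Lama5, Lamb2, Col4a3, Col4a4, Col6a6 and Col19a1. Of these, Col6a6 fell less than in all tubular cells (-2.39 against -4.21), as did Col19a1 (-2.84 against -4.82), and Lamb2 (2.89 against 1.01) and Hspg2 (3.86 against 1.75) rose more, with the differences not tested. The other 10 lost it. The change of Lamb3 was 1.83 (adjusted p = 0.4164) in these cells against 4.60 in all tubular cells, and that of Nid1 1.498 (adjusted p = 0.1799) against 3.92. Col1a1 (1.15), Col1a2 (0.93), Col3a1 (1.61), Tnc (2.44), Col6a3 (2.01) and Dcn (-0.41) also gave smaller changes than in all tubular cells, while those of Col15a1 (3.83) and Lamc1 (1.06) were larger. What part the make-up has in the other changes was not tested. Neutrophil markers in tubular cells summed to 1.04 CPM in the control and 22.7 and 4.58 at day 7, and their median mitochondrial share was 24.97% in the control and then 4.44% and 6.28%. The part of both in these changes was not tested.

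The widespread network rose together. Col4a1 was at 42.5 in the control, 155 at day 1, 135 at day 2, 172 at day 4, 280.3 and 214 at day 7, 42.4 and 45.0 at day 11, and 54.4 and 46.4 at day 14 CPM. Both day 7 libraries were the highest of the 10, days 1, 2 and 4 lay between, and days 11 and 14 lay near the control. Col4a1 was higher at day 7 by 1.73 ± 0.22 (SE, adjusted p = 0.00029) and Col4a2 by 1.48 ± 0.31 (SE, adjusted p = 0.0045). Col4a2 stood at 27.7 in the control and 178 and 95.4 at day 7. Col4a6 rose by 2.71 ± 0.60, while Col4a5 changed by 0.28 ± 0.20 and did not pass the threshold. Col18a1, whose product carries endostatin at its end, was at 38.0 in the control, 142, 134 and 187 at days 1, 2 and 4, and 219.6 and 243 at day 7, a rise of 1.81 ± 0.25. The linkers of the membrane rose as well. Nid1 went from 0.895 in the control to 31.5 and 17.8 at day 7, by 3.92 ± 0.44 (SE, adjusted p = 0.00014). Nid2 rose by 2.14 ± 0.44 and perlecan, Hspg2, by 1.75 ± 0.35.

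Among laminins, Lamb3, a beta chain found at hemidesmosomes, rose at day 7 by 4.60 ± 0.48. Lamb3 was at 0.215 in the control, 3.90 at day 1, 3.89 at day 2, 6.68 at day 4, 8.99 and 9.62 at day 7, 0.908 and 0.721 at day 11, and 0.383 and 0.267 at day 14. Both day 7 libraries were the highest, and Lamb3 overlaps Hsd11b1 and G0s2 on the opposite strand, so with strand not stated their reads cannot be told apart. Lama3 fell by 1.62 ± 0.49, a call lost under 4 of 15 alternatives. Col17a1 (chr19:47646344-47692094, minus strand), a transmembrane collagen of hemidesmosomes, had 1 UMI among control tubular cells and 39 and 93 at day 7, or 8.77 and 8.52 CPM. The ratio was 240.0, with a counting interval of 42.3 to 9552, and edgeR gave 6.84 ± 0.64 (SE, adjusted p = 3.9e-05). Its level was already 1.61 at day 1 and 5.50 at day 4. Of the other chains, Lama5 rose by 1.49 ± 0.21, Lamb2 by 1.01 ± 0.26 and Lamc1 by 0.82 ± 0.26, of which Lamc1 lost its call under 8 of 15 alternatives. Lama5 and Lamc1 belong to the common laminin of tubular membranes. Lamb1 was at 82.1 in the control and 195 and 173 at day 7, a TMM-scaled change of 0.36 ± 0.18 that did not pass the threshold.

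Sparc and fibronectin were among the largest tubular rises. Sparc was at 8.20 in the control, 221 at day 1, 141 at day 2, 109 at day 4, 326 and 139 at day 7, 38.9 and 46.1 at day 11, and 13.2 and 13.2 at day 14. Days 1, 2 and 4 and both day 7 libraries all stood far above the control, and the change at day 7 was 3.99 ± 0.46 (SE, adjusted p = 0.00015). Fn1 was at 0.465 in the control, 6.31 at day 1, 2.64 at day 2, 9.92 at day 4, 23.2 and 22.1 at day 7, 1.92 and 2.78 at day 11, and 0.479 and 0.586 at day 14, a change of 4.78 ± 0.39 (SE, adjusted p = 2.8e-05). Genes that lead in stromal cells were also higher in tubular cells at day 7, Col5a1 by 3.26 ± 0.80, Tnc by 3.19 ± 0.60, Col1a1 by 2.80 ± 0.62, Col15a1 by 2.75 ± 0.60, Col6a3 by 2.74 ± 0.58, Col3a1 by 2.54 ± 0.54 and Col1a2 by 2.26 ± 0.39. In proximal cells alone Tnc, Col1a1, Col15a1, Col6a3, Col3a1 and Col1a2 kept their direction, at the changes given above, and were not called, with adjusted p of 0.05584 for Col15a1 to 0.4997 for Col1a1. Their levels stayed low: Col1a1 at 1.80 and 3.12 and Col3a1 at 4.50 and 6.05 CPM, against 1078 and 1720.5 and 4168 and 4416 in stromal cells.

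RNA released by other cells can enter any droplet, so the tubular levels were set beside those of immune cells of the same library. Of the 25 genes higher in tubular cells, 10 had a 95% counting interval above that of immune cells in both day 7 libraries, among them Col17a1, Col18a1, Col4a1, Col4a2, Hspg2, Lama5, Lamb2, Nid1 and Sparc. A further 5 did so in 1 library: Col4a6, Col8a1, Lamb3, Lamc1 and Nid2. The remaining 10 did so in neither: Col15a1, Col1a1, Col1a2, Col3a1, Col5a1, Col6a1, Col6a3, Fbn1, Fn1 and Tnc. Immune cells hold much Fn1 of their own, so this comparison could not separate it: at day 7 the tubular level of Fn1 was 16.0% and 8.47% of the immune level. For the other 9, tubular transcripts and those of other cells cannot be told apart. Genes outside the 25 also had intervals above those of immune cells in both day 7 libraries, among them Col4a3, Col4a4, Col4a5, Col27a1 and Lamb1. The share over all genes was not determined. The macrophage gene Lyz2 in tubular cells was 0.0418% of its immune level in the control, 2.68% and 0.645% at day 7, and 0.0335% and 0.0375% at day 14. The tubular gene Kap gave larger shares in other classes. In immune cells it was 11.4% of its tubular level in the control, 28.2% at day 1, and 12.8% and 5.23% at day 7. In stromal cells it was 5.68% in the control, 23.4% at day 1, and 19.4% and 5.41% at day 7.

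A smaller group fell in tubular cells, led by Col19a1, Col6a6 and Col4a3 and Col4a4 of the glomerular network, while Col4a5 did not pass the threshold. Col4a3 was at 123 in the control, 78.9 at day 1, 75.4 at day 2, 49.3 at day 4, 42.5 and 36.5 at day 7, 71.3 and 79.7 at day 11, and 95.3 and 66.6 at day 14. The control was the highest library and both day 7 libraries the lowest. It fell at day 7 by 2.45 ± 0.23 (SE, adjusted p = 5.1e-05). Col4a4, which starts 72 bases away on the other strand, was at 132 in the control and 63.6 and 58.6 at day 7, and fell by 1.91 ± 0.17 (adjusted p = 4.2e-05). Col6a6, a collagen VI chain, was at 33.8 in the control, 5.51 at day 1, 8.37 at day 2, 7.76 at day 4, 2.70 and 3.39 at day 7, 4.44 and 17.7 at day 11, and 31.7 and 30.9 at day 14, a change of -4.21 ± 0.58 at day 7. Col19a1 changed by -4.82 ± 0.61 and stood at 4.51 in the control and 0.450 and 0.183 at day 7. Both were back near the control level at day 14, Col6a6 at 31.7 and 30.9 and Col19a1 at 6.08 and 3.63. Decorin and Col26a1 changed by -1.32 ± 0.46 and -0.88 ± 0.31, calls that were lost under 11 of 15 and 12 of 14 alternatives. With total UMIs the 4 genes called lower were Col19a1, Col6a6, Col4a3 and Col4a4. The share of Col4a3 UMIs that came from podocytes was 5.71% in the control and 20.2% and 16.6% at day 7.

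**Figure D3:**
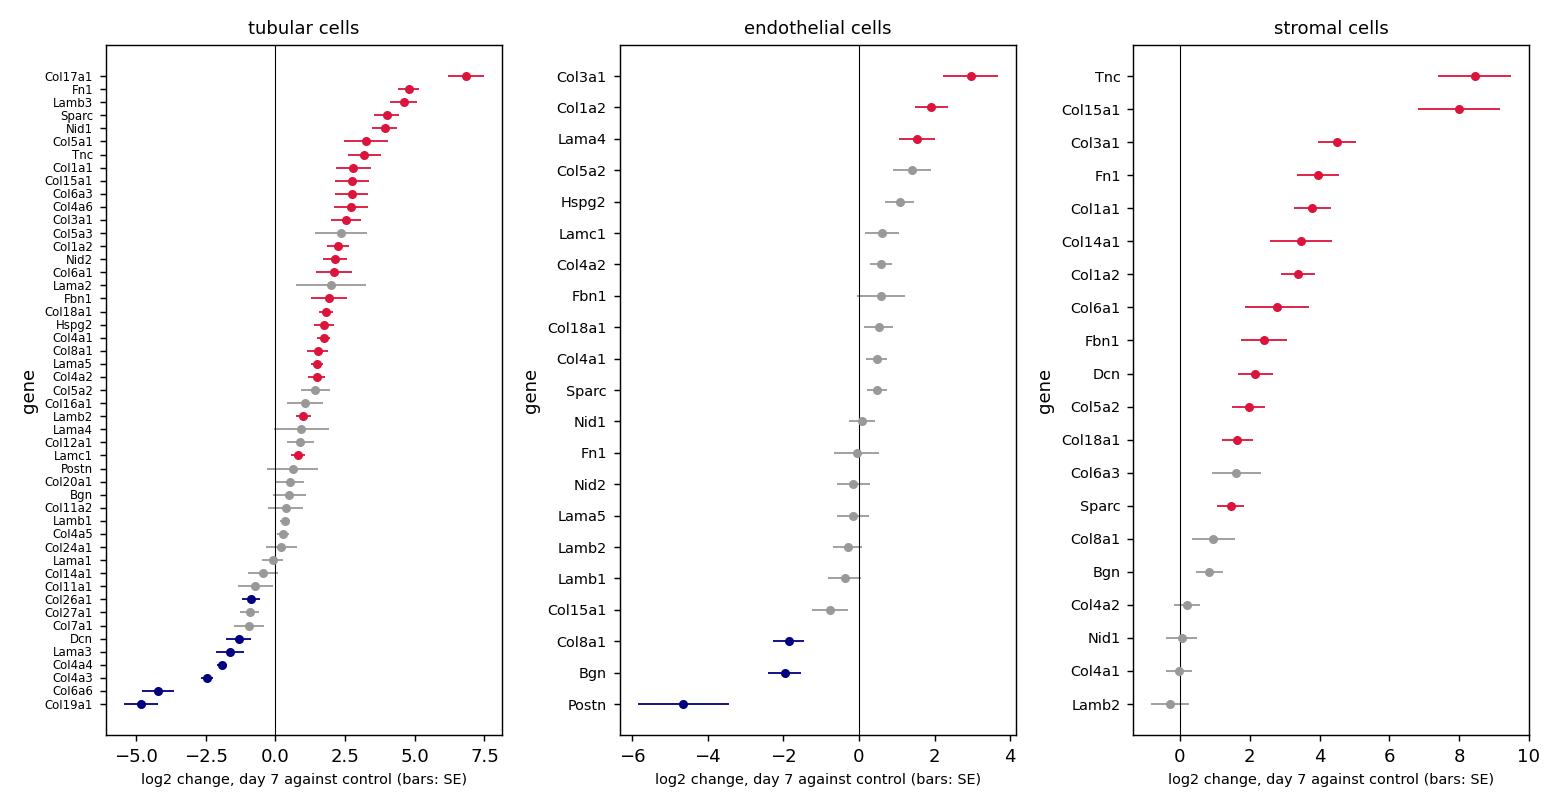
Log2 change at day 7 against the control (x axis, bars are SE from edgeR) of matrix genes in tubular, endothelial and stromal cells; red marks genes called higher, blue called lower and grey not called at an adjusted p of 0.05. In tubular cells Col4a1 (1.73) and Col4a3 (-2.45) lie on opposite sides of 0, and in stromal cells Col3a1 (4.49) and Col1a1 (3.79) are called while Col4a1 (-0.03) is not.

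Most fibronectin transcripts at day 7 were in immune cells. Fn1 in immune cells was at 0 in the control, 447 at day 1, 84.0 at day 2, 104 at day 4, 145 and 261 at day 7, 49.3 and 87.4 at day 11, and 0 and 0 at day 14, in CPM and with no test over days. It was 0 in the control and at day 14, among 84, 73 and 65 immune cells, with a counting interval of 0 to 29.5 in the control. Immune cells held 0% of the Fn1 UMIs of the control, 37.3% at day 4 and 60.5% and 69.0% at day 7, or 256 and 1033 UMIs. Stromal cells held 8.04% and 7.21% at day 7, although their level was higher, at 611 and 537 CPM. There were 84 immune cells in the control library and 1166 and 1950 in those of day 7, so more cells and more RNA per cell cannot be told apart in these percentages. Endothelial cells held 44.7% of Fn1 in the control. Stromal cells held most of Col3a1, 64.2% in the control and 76.3% and 80.2% at day 7. The tubular part of Sparc went from 6.60% in the control to 44.5% and 28.0% at day 7, and that of Nid1 from 10.5% to 59.6% and 51.1%. Tubular cells held 62.6% of Col4a1 in the control and 72.2% and 74.4% at day 7.

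**Figure D4:**
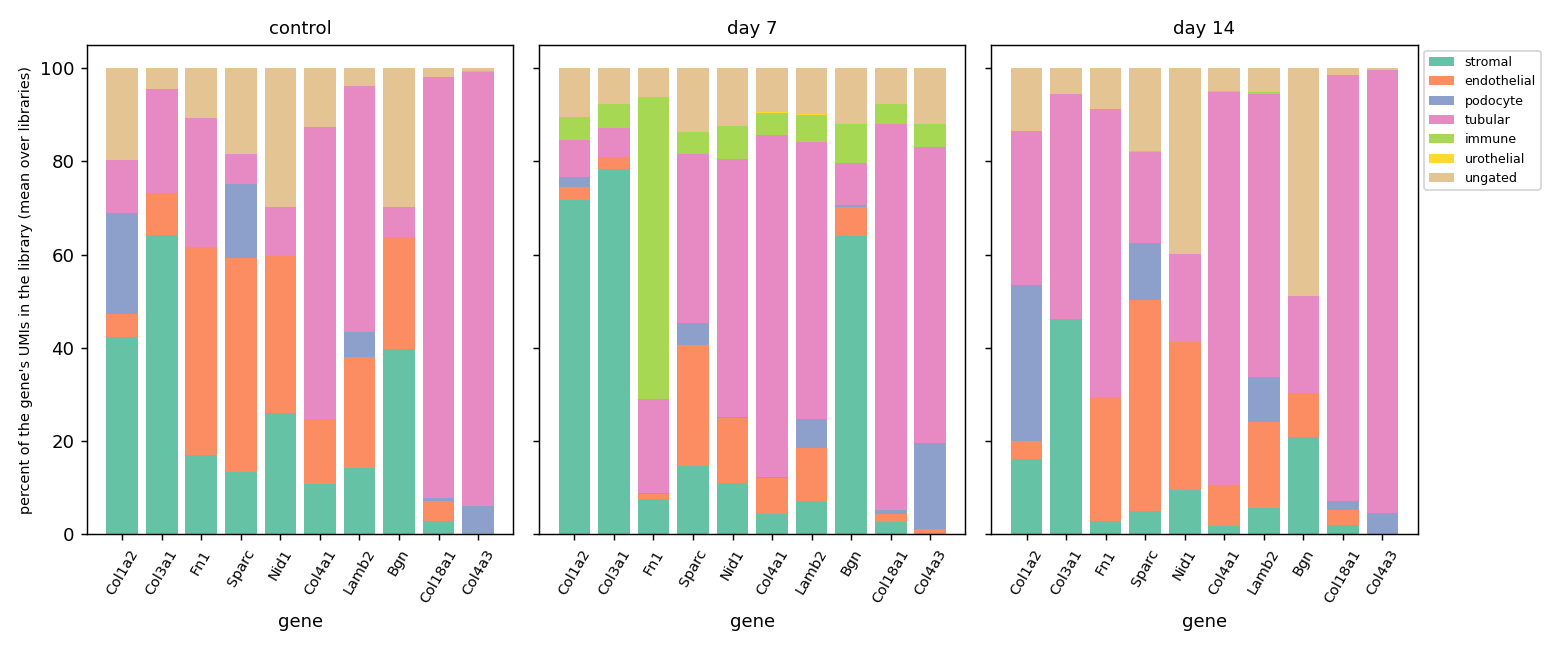
Stacked bars of the percent of each gene's UMIs found in each class (colours), for the control and for the means of the day 7 and day 14 libraries. Immune cells take most of Fn1 at day 7 (60.5% and 69.0% in its libraries) and none in the control, and the stromal part of Col1a2 is largest at day 7.

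In endothelial cells Col3a1, Col1a2 and Lama4 were higher at day 7 and Postn, Bgn and Col8a1 lower. At day 7, 6 of 21 genes tested differed from the control (of all genes 4.6%, with 1.97% higher and 2.62% lower), 3 higher and 3 lower. Postn, periostin, went from 29 UMIs in control endothelial cells to 1 and 0 at day 7, a ratio of 27.4 with a counting interval of 4.54 to 1119. It passed the filter on low counts only through the control, in which it was high. The counts of calls in this class thus describe the genes tested. Bgn was at 119 in the control and 48.2 and 28.2 at day 7, and fell by 1.97 ± 0.44. Col8a1, a short-chain collagen of vessels, fell by 1.86 ± 0.41. These 3 were also lower at day 14, with changes of -2.29 ± 0.48 for Bgn and -1.45 ± 0.41 for Col8a1, and Postn at 1 and 0 UMIs, the only 3 of 21 called there (of all genes 3.12%, with 1.2% higher and 1.92% lower). DESeq2 called 0 of the 21 at day 14, with 1 at an unadjusted p under 0.05, and without the first or without the second day 14 library edgeR called 1, with Col8a1 and Postn lost. The 4 red blood cell markers tested were also all lower at day 14 (median -2.83), and their part was not tested. The higher genes at day 7 were Col3a1 (2.95 ± 0.72), Col1a2 (1.92 ± 0.43) and Lama4 (1.54 ± 0.48), whose call was lost under 10 of 14 alternatives. Scaled to total UMIs, 5 were higher and 3 lower (of all genes 3.02% higher and 1.88% lower). Of the Col1a1, Col1a2 and Col3a1 UMIs in endothelial cells, 155 of 156 in the second day 7 library came from 10 cells, and the first held 14. Only 11 of 311 endothelial cells of the second library held any of these UMIs, and 2 held at least 5. At day 2, 676 of 682 came from 10 cells. Without the second day 7 library edgeR called 0 of the genes tested, and with all libraries DESeq2 called 0 of 21, with 4 at an unadjusted p under 0.05. The basement membrane genes that lead in this class, Col4a1 (0.47 ± 0.28), Col4a2 (0.59 ± 0.29) and Hspg2 (1.08 ± 0.39), did not pass the threshold. Neutrophil markers in endothelial cells summed to 0 CPM in the control and 127 and 176 at day 7, and their part was not tested. The median mitochondrial share of endothelial cells was 10.95% in the control and 3.13% and 3.74% at day 7, and its part was not tested either.

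Whether the change at day 7 differed between classes was tested with an interaction term. Between endothelial and tubular cells it differed for 12 of 51 genes (of all genes 6.29%, with 1.87% higher and 4.42% lower), and 11 of these rose less or fell more in endothelial cells. The differences were Fn1 -4.98, Nid1 -3.92, Col15a1 -3.63, Sparc -3.60, Col8a1 -3.55, Bgn -2.59, Nid2 -2.47, Lama5 -1.84, Lamb2 -1.48, Col18a1 -1.48 and Col4a1 -1.42. The exception, Col4a4, fell in tubular cells and had a difference of 2.31 ± 0.56. Between stromal and tubular cells it differed for 4 of 54 genes (of all genes 2.1%, with 0.468% higher and 1.63% lower): Nid1 (-3.93 ± 0.54), Sparc (-2.67 ± 0.45), Col4a1 (-1.95 ± 0.36) and, in the other direction, Dcn (3.49 ± 0.70). With 1 library left out at a time, 4 to 9 genes were called between endothelial and tubular cells and 1 to 4 between stromal and tubular cells. Nid1 shows the contrast in levels. It was at 243 in control stromal cells and 252 and 303 at day 7, at 121 and then 133 and 152 in endothelial cells, and at 0.895 and then 31.5 and 17.8 in tubular cells. In proximal cells alone the tubular change of Nid1 was 1.498 (edgeR adjusted p = 0.1799), and the interactions were not refitted in them. All classes come from the same libraries, so every change from the control rests on 1 control library.

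Day 11 was then compared with day 7, with which the comparisons above share their day 7 libraries. In tubular cells 24 of 50 genes differed between these days (of all genes 47.4%, with 24.1% higher and 23.4% lower), 19 lower and 5 higher at day 11. With total UMIs, 27 were lower and 4 higher, where 55.9% of all genes were lower and 10.6% higher. The falls were led by Col17a1 -4.59 ± 0.48, Nid1 -2.85 ± 0.35, Lamb3 -2.75 ± 0.36 and Fn1 -2.50 ± 0.27, and included Col5a2 -2.02, Col18a1 -1.79, Col4a1 -1.72, Hspg2 -1.70, Sparc -1.65, Col4a6 -1.61 and Lamb1 -1.37. The 5 that rose were Col19a1 3.03 ± 0.75, Col6a6 2.57 ± 0.56, Col4a3 1.71 ± 0.20, Dcn 1.25 ± 0.44 and Col4a4 1.15 ± 0.15 (the call of Dcn was lost under 10 of 16 alternatives). Proximal cells went from 14.4% and 15.9% of this class at day 7 to 77.3% and 81.2% at day 11. Alone they gave 10 calls among 42 genes tested, with the share of all genes called not determined. Of 21 named genes refitted in them, 7 kept the call, Col17a1, Fn1, Col18a1, Col4a1, Sparc, Col4a3 and Col4a4, and 14 lost it. Among those that lost it were Col6a6 at 0.36 (adjusted p = 0.7017), Col19a1 at 0.74 (adjusted p = 0.5395), Nid1 at -0.85, Lamb3 at -0.996 and Hspg2 at -2.33 (adjusted p = 0.05397). In tubular cells 2 of 2 neutrophil markers were lower at day 11 (median -3.31) and 2 of 5 red blood cell markers higher (median of the list 2.46). Lyz2 went from 485 and 128 CPM to 20.2 and 28.6, and the median mitochondrial share from 4.44% and 6.28% to 15.9% and 12.1%. The part of these values and of the make-up in the changes was not tested. In stromal cells 7 of 20 were lower at day 11 and none higher (of all genes 7.86%, with 3.96% higher and 3.9% lower): Tnc -2.86 ± 0.55, Col6a3 -2.46 ± 0.79, Col3a1 -1.95 ± 0.36, Col1a2 -1.81 ± 0.35, Col5a2 -1.69 ± 0.43, Fn1 -1.68 ± 0.43 and Col1a1 -1.57 ± 0.37. DESeq2 called 0 of these 20, with 4 at an unadjusted p under 0.05, and edgeR called 3 without the second day 7 library. Lyz2 in stromal cells went from 1024 and 343 CPM to 19.4 and 25.6. Their median mitochondrial share went from 3.69% and 4.44% to 12.6% and 11.1%, and the part of both was not tested. In endothelial cells 9 of 21 differed (of all genes 12%, with 6.08% higher and 5.91% lower), 8 lower and 1 higher, or 10 lower and none higher with total UMIs (of all genes 3.84% higher and 10.8% lower). Markers of other cells fell with them: 4 of 4 tested red blood cell markers (median -2.27) and 2 of 2 neutrophil markers (median -5.21) were lower, and their part was not tested. Lower were Col3a1 -3.63, Col1a2 -2.19, Lama4 -2.07, Col5a2 -1.45, Nid1 -1.13, Col4a1 -1.08 and Hspg2 -0.99 and Fn1, which had 22 UMIs at day 7 and 2 at day 11, and Bgn was higher by 1.27 ± 0.44. DESeq2 called 1 of them, Col4a1, and edgeR 2 without the second day 7 library.

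At day 14 fewer of these genes differed from the control within a class than at day 7, as did fewer of all genes tested. In tubular cells 3 of 50 did, all lower (of all genes 8.7%, with 3.92% higher and 4.78% lower): Dcn (-3.56 ± 0.54, adjusted p = 0.0078), Col26a1 (-1.35 ± 0.31) and Lamb1 (-0.71 ± 0.18). Other fits also called genes higher: 4 of 7 calls with only the compared groups fitted, and 3 of 8 without the first or without the second day 7 library, while 1 gene was called, lower, without either day 14 library in turn. Dcn in tubular cells was at 3.08 in the control, 12.1 at day 1, 4.99 at day 2, 3.75 at day 4, 0.899 and 2.75 at day 7, 3.43 and 2.57 at day 11, and 0.239 and 0.267 at day 14. In stromal cells 1 of 20 did (of all genes 0.769%, with 0.22% higher and 0.549% lower). This was decorin, with 46 UMIs in the control and 0 of 83103 UMIs at day 14, at least 4.997-fold lower. Its level was 180.4 in the control, 305 and 1402 at day 7 and 660.3 and 25.6 at day 11, and the call was lost under 7 of 13 alternatives. These were DESeq2, no filter on low counts, a gate of 4 marker UMIs, and leaving out the second day 7, the first day 11 or either day 14 library. Col1a2 in stromal cells changed by -1.42 ± 0.48 and Col1a1 by -2.86 ± 1.05 at day 14, neither past the threshold. Over all cells the 9 lower genes were Postn -3.80, Col1a2 -2.12, Bgn -1.78, Col15a1 -1.78, Col26a1 -1.37, Nid1 -1.07, Sparc -0.86 and Lamb1 -0.72 and Lama2, which had 16 UMIs in the control and 3 at day 14. The call of Col15a1 was lost under 11 of 13 alternatives. Stromal cells numbered 115 of 6134 cells in the control and 43 of 6941 and 26 of 6183 at day 14. Lumican, Lum, another proteoglycan of fibroblasts, was too low to test in stromal cells and was highest in the first day 11 library, at 97.1 CPM against 15.7 in the control.

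Lists of genes that make, bind or accompany the matrix were read from the same fits. They were read from the main edgeR fits with TMM only. How their calls hold with total UMIs, DESeq2, proximal cells alone or other alternatives was not examined. In tubular cells at day 7, 7 of 19 tested genes of collagen processing and crosslinking rose and 2 fell, with a median change of 0.70, where 17.9% of all genes tested were higher and 20.2% lower. Pcolce2 had the largest change, with 1 UMI in the control and 63 and 29 at day 7, or 14.2 and 2.66 CPM. Next came Loxl2, a lysyl oxidase that crosslinks collagen, at 0.394 CPM in the control and 21.1 and 14.9 at day 7 (4.66 ± 0.44). It was followed by Loxl1 (3.44 ± 0.58) and the procollagen protease Bmp1 (3.39 ± 0.55). The hydroxylases Plod2 (-1.88 ± 0.25) and P4ha1 (-1.16 ± 0.19) fell. Of 19 matrix receptors 11 rose and 1 fell (median 1.22). Cd44, the hyaluronan receptor, was at 0.322 in the control and 128 and 181 at day 7 in tubular cells, where immune cells of the same libraries had 144 and 155. The integrin chains Itga2 (3.64 ± 0.60), which binds collagen, and Itgb4 (2.45 ± 0.33), of hemidesmosomes, rose, as did the proteoglycan Sdc1 (2.97 ± 0.28), while Itgb8 fell (-1.67 ± 0.20). Of 15 other matrix glycoproteins and proteoglycans 10 rose and 0 fell (median 1.70), among them Mgp (3.07 ± 0.62), Fbln2 (2.70 ± 0.63) and Ltbp1 (2.25 ± 0.39). Mgp was at 26.7 and 18.5 CPM in tubular cells at day 7 and at 77.5 and 82.8 in immune cells of the same libraries, so transcripts of tubular and of other cells cannot be told apart for it. The median over all genes tested was 0.00.

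In stromal cells at day 7 the same lists gave 2 of 7 processing genes higher and 0 lower, 0 of 5 receptors higher and 1 lower, and 6 of 11 other matrix genes higher and 0 lower, where 4.84% of all genes tested were higher and 3.35% lower. Mfap5 and Fbln2, with 0 UMIs in the control, passed the filter on low counts only through libraries in which they were high. Fbln1 and Loxl2 had 2 and 3 UMIs in the control. These counts describe the genes tested and not the lists. As with the calls above, edgeR's spread was mostly shared between genes, with 136 prior degrees of freedom in stromal and 55.8 in endothelial cells, against 3 residual. The processing genes were Loxl2 (3.81 ± 0.93) and the procollagen protease enhancer Pcolce (2.42 ± 0.59), and the receptor that fell was Itga8 (-2.05 ± 0.36), an integrin of mesangial and smooth muscle cells. Mgp, an inhibitor of calcification, was at 737 CPM in the control and 10096 and 18503 at day 7 (4.11 ± 0.56), and fibulin Fbln1 rose by 4.10 ± 1.13. In endothelial cells 0 of 12 processing genes rose and 2 fell, Lox (-3.99 ± 0.91) and P4ha1 (-1.49 ± 0.41), 1 of 12 receptors rose and 2 fell, and 0 of 12 other matrix genes rose and 1 fell, where 1.97% of all genes tested were higher and 2.62% lower. Lox, at 49.8 CPM in the control and 6.03 and 2.17 at day 7, could pass the filter on low counts through the control alone.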

How the data were processed

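Per the labels' protocols, the authors made Drop-seq libraries of single-cell suspensions and prepared the 3′ ends for sequencing. The authors deposited 1 table of raw counts for each library, with gene symbols in rows and barcodes in columns; the whole numbers were read as UMIs. Per the submitters' processing notes, Bowtie2 2.2.7 and mm10 were named; the annotation, the strand of counting and cell filters are not given in the sources used here.

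A barcode was kept if it held at least 500 UMIs and 500 genes and no more than 50% mitochondrial UMIs. That left 52797 of 64803, with 7091848 to 29446508 UMIs per library. In the day 11 libraries, 5362 and 5424 barcodes fell under the gene minimum, and 99 barcode strings occurred in 2 or more libraries. No doublet caller was run. A cell went to the class with most UMIs over 97 markers of 6 classes, if it had at least 2 UMIs from at least 2 markers and more than 2 times those of every other class.

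Raw counts were summed per library and class. edgeR 4.0.16 in R 4.3.3 (quasi-likelihood, two-sided, TMM, filterByExpr, Benjamini-Hochberg over all genes tested, 0.05) was fitted to the control and days 7, 11 and 14 together, which gave 3 residual degrees of freedom. Days 1, 2 and 4, with 1 library each, entered no test of groups. The filter on low counts let a gene in through any library in which it was high, or through 1 class alone where classes were compared. Counts of calls thus describe the genes tested. Class comparisons used library as a block where both classes had at least 20 cells, and interactions used the same block. Counting intervals are exact 95% Poisson intervals, percent intervals are exact binomial, and both cover counting error only. A group at 0 UMIs was set to 3 counts for bounds. Alternatives were DESeq2 1.42.0, other scalings, filters, gates and sets of libraries. The scaling to total UMIs was added after the data were seen.

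The genes and the lists of other matrix genes were chosen with earlier results of these data known. Named genes are up to 10 called per direction and comparison, the leading genes of each class, and a fixed core; of the other lists, up to 4 called genes each. The values of 1 of the 67 genes are not reported here; it stays in the counts, medians and sums. Of the 67 genes, 29 overlap another gene on the opposite strand and 21 on the same strand, and reads of overlapping genes may be shared.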

Additional observations from a re-analysis of the deposited data

Results flagged for a closer look

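A difference between classes in the change from control to day 7, by the interaction test, drew attention to 12 genes in endothelial against tubular cells and 4 in stromal against tubular cells. For endothelial minus tubular cells, the log2 differences were Fn1 -4.98 ± 0.59, Nid1 -3.92 ± 0.49, Col15a1 -3.63 ± 0.79, Sparc -3.60 ± 0.41, Col8a1 -3.55 ± 0.51 and Bgn -2.59 ± 0.67, and Nid2 -2.47 ± 0.65, Lama5 -1.84 ± 0.39, Lamb2 -1.48 ± 0.39, Col18a1 -1.48 ± 0.38 and Col4a1 -1.42 ± 0.29. In the opposite direction stood Col4a4, at 2.31 ± 0.56. In each class's own fit, the change of Sparc was 0.47 in endothelial and 3.99 in tubular cells, that of Nid1 0.08 in endothelial and 3.92 in tubular cells, and that of Lama5 1.49 in tubular cells. Over its alternatives, the call was lost for Bgn in 7 of 12, for Nid2 in 7, for Lamb2 in 6, for Col18a1 and Col4a4 in 5 each, for Col15a1 and Lama5 in 3 each and for Col4a1 in 2, while those of Fn1, Nid1, Sparc and Col8a1 were lost in none. For stromal minus tubular cells, the differences were Nid1 -3.93 ± 0.54, Sparc -2.67 ± 0.45, Col4a1 -1.95 ± 0.36 and Dcn 3.49 ± 0.70. The call was lost for Dcn in 5 of 12 alternatives, for Sparc in 3 and for Col4a1 in 3. No alternative of either interaction was limited to proximal cells. In these alone the edgeR change at day 7 was 1.498 for Nid1 (adjusted p = 0.1799), 3.77 for Fn1 and 4.61 for Sparc. The tubular counting interval at day 7 lay above that of immune cells in 1 library for Col8a1 and in neither for Fn1.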

How the results depend on the processing

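Counts of called genes, with the reported count first, moved by over 1.5 times as follows, and the cause was not tested. Without the filter on low counts they went from 9 to 3 (all cells, day 14), 3 to 1 (tubular, day 14), 13 to 1 with 18 at an unadjusted p under 0.05 (stromal, day 7), 7 to 0 with 16 (stromal, day 11 against day 7), 1 to 0 (stromal, day 14), and 23 to 43, 25 to 43 and 19 to 30 for stromal, endothelial and immune against tubular cells. With DESeq2 they went from 9 to 4 (all cells, day 14), 6 to 0, 9 to 1 and 3 to 0 (endothelial, day 7, day 11 against day 7, and day 14), and 13 to 3, 7 to 0 and 1 to 0 (stromal, the same order). With only the compared groups fitted, they went from 3 to 7 (tubular, day 14), 6 to 0 with 9 unadjusted and 9 to 5 (endothelial, day 7, and day 11 against day 7), and 7 to 2 (stromal, day 11 against day 7). Proximal cells alone gave 18 in place of 32 at day 7, 16 shared, and 10 in place of 24 for day 11 against day 7, 8 shared. In them 42 genes were tested for each comparison, against 50 in all tubular cells, and the share of all genes called was not determined. Leaving out the 5% of barcodes with most UMIs gave 4 in place of 9 (all cells, day 14), a limit of 25% mitochondrial UMIs gave 5 in place of 3 (tubular, day 14), and a gate of 4 marker UMIs gave 0 in place of 1 (stromal, day 14). Scaling to total UMIs gave 39 in place of 23 for all cells, day 11 against day 7, where Bgn reversed to -0.052, and 7 in place of 4 for stromal minus tubular cells.

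Leaving out 1 library at a time gave, for day 7, day 11 against day 7 and day 14, 28 to 32, 17 to 25 and 2 to 10 calls over all cells, 25 to 29, 15 to 24 and 1 to 8 in tubular, 0 to 6, 2 to 8 and 1 to 3 in endothelial and 7 to 15, 3 to 8 and 0 to 1 in stromal cells. Against tubular cells it gave 21 to 26 (stromal), 24 to 27 (endothelial), 14 to 16 (podocyte) and 17 to 22 (immune), and for the interactions 4 to 9 and 1 to 4. Single genes were refitted only where the main fit called them: up to 10 per direction with the largest changes, and the called genes of the fixed core. Of these refitted values, 2997 of 3388 kept direction and call, 390 lost the call and 1 reversed. Comparisons of days and of classes are pooled here, so the tally does not measure how stable any 1 comparison is.

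Deviations of libraries by replicate number correlated between days 7 and 11 at 0.05, 7 and 14 at 0.01, and 11 and 14 at -0.05, over 17495 genes. No shift over genes shared by replicate number was thus seen. With so few libraries per day, these values cannot show whether the numbers pair libraries by animal, preparation or batch. With the replicate block, day 11 against day 7 gave 23 calls over all cells, 24 in tubular, 6 in endothelial and 3 in stromal cells. The stromal and podocyte results rest on few cells, 26 to 128 and 12 to 223 per library.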
